A study of Canis lupus familiaris with 6 samples.

Results

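Collagens are triple-helical proteins of the extracellular matrix, each built from 3 chains encoded by COL genes. Fibrillar collagens form the banded fibres of bone, skin and cartilage. Basement membrane collagens form sheet-like networks, FACIT collagens (fibril-associated, with interrupted helices) coat the fibres, and beaded filament collagens form microfibrils around cells. Osteoblasts, the bone-forming cells, lay down mainly type I collagen, and matrix made by the tumour cells themselves is a diagnostic feature of osteosarcoma, a malignant bone tumour.

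Here the collagen chains were followed across 6 primary lines of canine osteosarcoma, compared by whether a line can grow as a tumour in mice. The tumorigenic lines were UWKOS1, UWKOS3 and UWKOS7 (n = 3), and the non-tumorigenic lines were UWKOS2, UWKOS6 and UWKOS8 (n = 3). All were untreated, cultured in medium with 10% serum, and sampled before any transplantation at the same range of confluency. Each line was measured once, on 1 Affymetrix array, so p-values rest on the differences among single cultures. The labels do not say which dog each line came from, and there was no normal bone or osteoblast culture.

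The collagen genes were taken as those whose symbol, COL followed by a number, A and a number, was the only symbol of at least 1 probe set (a group of short probes that reports 1 transcript). This rule found 36 genes, on 97 probe sets, among 15115 genes with a probe set of their own. Where a gene had several, the probe set with the highest mean over the 6 lines stood for it. By structure, 10 were fibrillar, 6 basement membrane, 8 FACIT, 3 beaded filament and 9 of other kinds. COL6A2, COL6A5, COL9A2, COL9A3, COL11A1, COL18A1 and COL28A1 had no such probe set and were not analysed here.

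All values are log2 signals as deposited, so a difference of 1 is a change of 2-fold, and differences are tumorigenic minus non-tumorigenic. Signals of different probe sets are not compared with each other, because probes differ in how well they bind. A gene was tested when its mean over the 6 lines reached the median of all probe sets, 6.07, and 23 of the 36 collagen genes did. The 13 below it were COL2A1, COL5A3, COL24A1, COL4A3, COL4A4, COL4A5, COL4A6, COL19A1, COL21A1, COL6A6, COL7A1, COL10A1 and COL23A1. A value near or under 6.07 is not known to lie above background. COL17A1 and COL22A1 lay just inside that limit with means of 6.10 and 6.11, and COL4A4 and COL19A1 just outside it, the latter with a mean of 5.96. A gene passed when its adjusted p in limma, corrected over all 21462 tested probe sets, was under 0.05.

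The array medians lay between 6.03 and 6.05. In the control probe sets at both ends of the GAPDH transcript, where a larger value means less signal from the 5′ end, the log2 ratio was 0.86 to 1.07 in the tumorigenic lines. It was 0.95 in UWKOS2, 1.21 in UWKOS6 and 1.98 in UWKOS8 (two-sided exact permutation p = 0.2, where 0.1 is the smallest that 3 against 3 can give). Of the osteoblast markers, SPARC lay between 12.41 and 13.71, while RUNX2 and BGLAP stayed between 5.32 and 6.64, and ALPL and IBSP were below 6.07 in every line. SPP1 was 9.76 in UWKOS1 and under the filter elsewhere. OMD, osteomodulin, was 9.58 to 9.97 in the non-tumorigenic lines and 3.22 to 6.42 in the others. Its difference of -4.53 made it the 1 osteoblast marker with an adjusted p under 0.05 (limma adjusted p = 0.0262). Apart from SPARC, no measured osteoblast marker was clearly above the filter in every line. Of 5 leukocyte markers 3 reached the filter and 0 passed; PTPRC was at most 5.17, CD3E at most 6.57 and CD14 at most 6.28. CD68 was under the filter in UWKOS1 and UWKOS3, where it was lowest at 5.71, and 7.32 in UWKOS7, against 7.22 to 7.68 in the non-tumorigenic lines.

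In the tumorigenic lines 3 collagen genes fell, namely COL4A1, COL4A2 and COL15A1, and 0 rose. Lower RNA per cell and fewer producing cells cannot be told apart in such bulk samples. The 3 make up 13.0% of the 23 tested, where 4.52% of all tested genes fell and 7.30% rose. A further 20 did not pass; 7 of the 23 had an unadjusted p under 0.05, a share near the 31.5% of all tested genes. Without the filter on dim signals, when every one of the 36 could be tested, only COL4A2 passed, where 1.99% of all probe sets fell. Of the 36 genes, 34 had a lower mean in the tumorigenic lines, 94.4% where 53.2% of all genes did, and the exceptions were COL4A3 and COL13A1. The median difference was -0.31 over the 36 and -0.03 over all genes. Centring each array on its hybridization controls raised the median of all tested probe sets from 0.03 to 0.20, and 26 of the 36 were then lower. The share of rises among all calls went from 60.6% to 77.0% under that centring. In 11 of the 36, or 30.6%, each tumorigenic line lay below each non-tumorigenic line, where 15.1% of all genes did; the reverse held for 0 of them and for 16.0% of all genes.

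**Figure D1:**
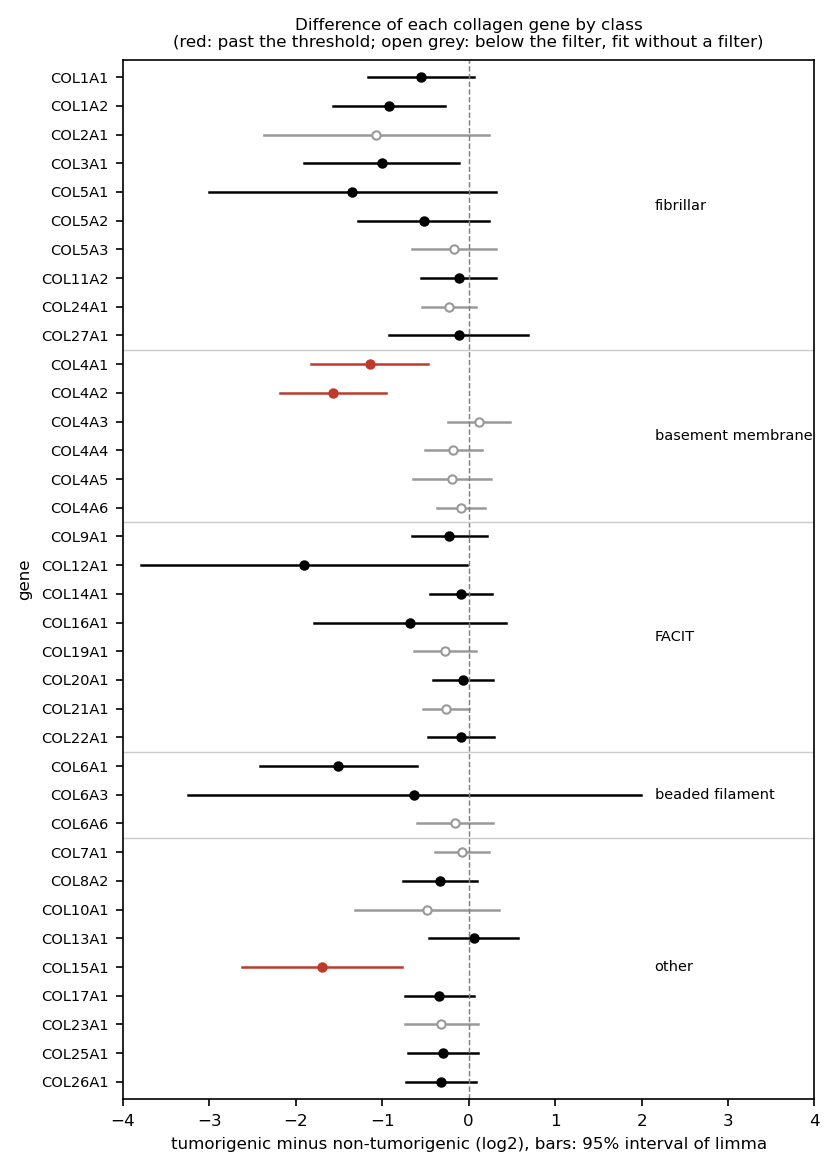
Difference between the groups for each of the 36 collagen genes (x axis, tumorigenic minus non-tumorigenic, log2; points, with the 95% interval of limma as bars), ordered by structural class. COL4A1, COL4A2 and COL15A1, in red, passed the threshold, and 34 of the 36 points lie left of 0.

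Among the basement membrane chains, the pair that builds the common form of type IV collagen fell together. COL4A1 (NCBI gene 403496) measured 10.58 in UWKOS1, 9.78 in UWKOS3 and 10.61 in UWKOS7, against 11.17 in UWKOS2, 11.61 in UWKOS6 and 11.63 in UWKOS8. COL4A2 (NCBI gene 403843) measured 10.53, 9.84 and 10.51 in the tumorigenic lines and 11.55, 12.04 and 12.00 in the others, in the same order. UWKOS3 was lowest for both chains, UWKOS2 was the lowest of the non-tumorigenic lines, and the groups did not overlap. The mean of COL4A1 was 10.33 ± 0.47 (SD, n = 3) against 11.47 ± 0.26 (SD, n = 3), a difference of -1.14 (limma adjusted p = 0.0483). The mean of COL4A2 was 10.29 ± 0.39 (SD, n = 3) against 11.86 ± 0.28 (SD, n = 3), which is 2.97-fold lower (limma adjusted p = 0.0221). The 95% intervals of the differences ran from -1.82 to -0.47 and from -2.19 to -0.95.

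The result held across the probes of both genes. COL4A1 fell on all 3 of its probe sets, by 1.14, 1.55 and 1.60, and COL4A2 on both of its own, by 1.57 and 1.12. In the RefSeq annotation of the dog assembly UU_Cfam_GSD_1.0 the 2 genes are neighbours, with no other protein-coding gene between them. The remaining chains of the class, COL4A3, COL4A4, COL4A5 and COL4A6, which occur in basement membranes of fewer tissues such as the kidney glomerulus, lay between 3.55 and 6.13 in every line. None of these 4 reached the filter, and their differences ran from -0.20 to 0.12.

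Whether the pair passed depended on which lines were kept in the fit. Both chains failed without UWKOS6 or without UWKOS8, the lines with the largest transcript-end ratios, and COL4A1 failed without some other lines too. Without UWKOS6 neither chain passed (limma adjusted p = 0.164 for COL4A1 and 0.0943 for COL4A2), in a fit where 0.158% of all probe sets fell. Without UWKOS8 the limma adjusted p was 0.141 for COL4A1 and 0.0713 for COL4A2, in a fit where 0.718% fell. COL4A2 passed without any 1 of the other 4 lines, whereas COL4A1 also failed without UWKOS1, UWKOS2 or UWKOS3 (limma adjusted p = 0.0762, 0.0684 and 0.0833). With the GAPDH ratio as a covariate COL4A2 differed by -1.41 (limma adjusted p = 0.113) and COL4A1 by -0.96 (limma adjusted p = 0.215), in a fit where 9 of the 21462 probe sets rose and 18 fell. The part of the ratio in these differences was not tested beyond this. The mean of 4 endothelial markers, of which 2 reached the filter and 0 passed, was 6.28 to 6.62 in the tumorigenic lines and 5.84 to 6.08 in the others. Of these markers KDR was higher without overlap by 1.11 (limma adjusted p = 0.0905), and PECAM1 by 0.84, under the filter in every line (limma adjusted p without the filter = 0.0451), while CDH5 and VWF overlapped between groups. The part of endothelial RNA in the type IV and COL15A1 values was not tested. UWKOS2, whose GAPDH ratio lay within the range of the tumorigenic lines, was higher than each of them for both type IV chains. That is 1 array, and no cause was tested with it.

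COL15A1 (NCBI gene 474778) encodes a multiplexin, a collagen with many helix interruptions that bridges basement membranes to the fibres beneath. It measured 8.78 in UWKOS1, 7.22 in UWKOS3 and 7.90 in UWKOS7, while UWKOS2, UWKOS6 and UWKOS8 were close together at 9.81, 9.55 and 9.62. The groups did not overlap, and the tumorigenic lines spread more widely than the others. The difference was -1.69 with an SE of 0.38 (limma adjusted p = 0.0404). Each of its 4 probe sets separated the groups, with differences from -1.69 to -0.31, and 2 of the 3 tested ones passed. COL15A1 passed without UWKOS1 but not when any other single line was left out, where the limma adjusted p ran from 0.0670 to 0.129.

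**Figure D2:**
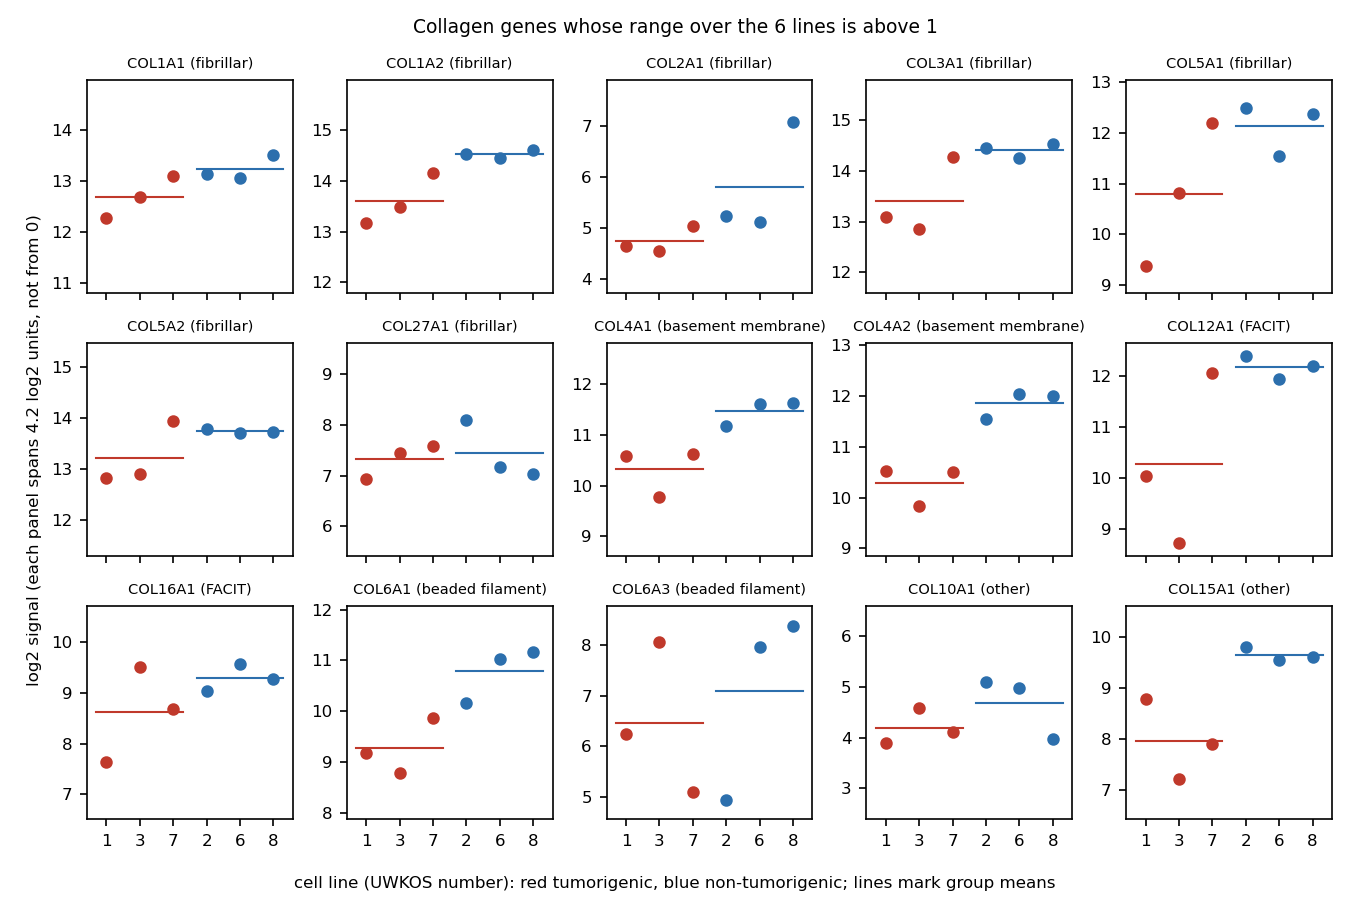
Log2 signal (y axis) in each line (x axis, red tumorigenic, blue non-tumorigenic, lines at group means) for the 15 collagen genes whose range over the lines exceeded 1. COL4A1, COL4A2, COL15A1, COL6A1, COL1A2 and, by 0.08, COL2A1 separate the groups, UWKOS7 sits with the non-tumorigenic lines for COL3A1, COL5A1, COL5A2 and COL12A1, and COL6A3 follows neither group.

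Of the 10 fibrillar genes 7 were tested and 0 passed, where 4.52% of all tested genes fell and 7.30% rose. The mean of each of the 10 was lower in the tumorigenic lines, where 53.2% of all genes had a lower mean. The class median was -0.53. COL1A1 and COL1A2 encode the chains of type I collagen, the main protein of bone matrix. COL1A2 measured 13.17 in UWKOS1, 13.48 in UWKOS3 and 14.15 in UWKOS7, against 14.53, 14.44 and 14.60 in UWKOS2, UWKOS6 and UWKOS8. The groups did not overlap, but the difference of -0.93 with an SE of 0.27 did not pass (limma adjusted p = 0.0706). COL1A1 measured 12.28, 12.68 and 13.10 in UWKOS1, UWKOS3 and UWKOS7, and 13.14, 13.07 and 13.51 in the other lines. UWKOS7 lay above UWKOS6 there, and the difference of -0.55 did not pass (limma adjusted p = 0.195). The 95% interval for COL1A1 ran from -1.16 to 0.07.

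COL3A1, COL5A1 and COL5A2 encode chains that are laid down together with type I collagen, in type III fibres and in the type V core that sets fibre width. COL3A1 measured 13.10 in UWKOS1 and 12.85 in UWKOS3 but 14.27 in UWKOS7, beside 14.46 in UWKOS2, 14.26 in UWKOS6 and 14.52 in UWKOS8. COL5A1 measured 9.39 in UWKOS1, 10.81 in UWKOS3 and 12.19 in UWKOS7, beside 12.49, 11.55 and 12.38. COL5A2 measured 12.82 and 12.90 in UWKOS1 and UWKOS3, and its highest value of all, 13.94, in UWKOS7, beside 13.78, 13.71 and 13.72. For these 3 genes UWKOS1 and UWKOS3 lay under every non-tumorigenic line, and UWKOS7 lay among or above them. Their differences were -1.01 for COL3A1, -1.34 for COL5A1 and -0.52 for COL5A2, and none passed (limma adjusted p = 0.123, 0.233 and 0.306). COL3A1 and COL5A2 are neighbours in the same annotation, with no protein-coding gene between them.

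Lines within the tumorigenic group therefore did not share 1 collagen level. Over the 10 fibrillar genes UWKOS1 lay below the range of the non-tumorigenic lines for 9 and UWKOS3 for 7, while UWKOS7 was below for 3, within for 5 and above for 2. Over all 36 genes the counts below that range were 29 for UWKOS1, 24 for UWKOS3 and 17 for UWKOS7; over all genes the shares were 40.5%, 35.0% and 30.6%. When UWKOS7 was left out, COL1A2 (-1.20), COL3A1 (-1.44), COL5A2 (-0.88), COL12A1 (-2.81) and COL6A1 (-1.80) passed beside the type IV pair, 7 in all, while COL15A1 did not. In that fit 5.73% of all probe sets fell, against 4.74% with all 6 lines.

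The mean of 6 smooth muscle and myofibroblast markers was also lower in UWKOS1 and UWKOS3 than in UWKOS7, although UWKOS3, not UWKOS1, was lowest. It was 9.44 in UWKOS1, 7.64 in UWKOS3 and 11.42 in UWKOS7, against 11.54 to 11.81 in the non-tumorigenic lines. Of the 6, 5 reached the filter and 1 passed, TPM2, which fell (limma adjusted p = 0.0491). MYH11, the marker of mature smooth muscle, was at most 5.75. UWKOS7 lay below every non-tumorigenic line for ACTA2, TAGLN and TPM2. It lay above them for CNN1 and within their range for MYL9 and MYH11. The mean of 7 fibroblast and stroma markers was ordered differently, with UWKOS7 lowest at 7.53. It was 9.30 in UWKOS1, 9.27 in UWKOS3 and 9.81 to 10.13 in the non-tumorigenic lines. FAP, LUM, PDPN and PDGFRA were lowest in UWKOS7, but PDGFRB, THY1 and DCN were not. DCN in UWKOS7 lay within the range of the non-tumorigenic lines, and PDGFRA in UWKOS1 and UWKOS3 lay above it. Of 4 measured epithelial markers 0 reached the filter. Their mean was 6.41 in UWKOS1 and 5.25 in UWKOS3, against 4.07 in UWKOS7 and 3.93 to 4.13 in the non-tumorigenic lines. The 4 did not move together. KRT8 measured 6.49 in UWKOS1, 6.64 in UWKOS3 and at most 3.04 in any other line. KRT18 measured 7.44 and 6.41 in the same lines and at most 5.72 in the others. EPCAM was 7.65 in UWKOS1 and under the filter in every other line, and CDH1 lay between 3.95 and 4.26 in all lines. CD68, the leukocyte marker named above, was also low in UWKOS1 and UWKOS3 alone. The part of these marker sets in the collagen values was not tested.

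**Figure D3:**
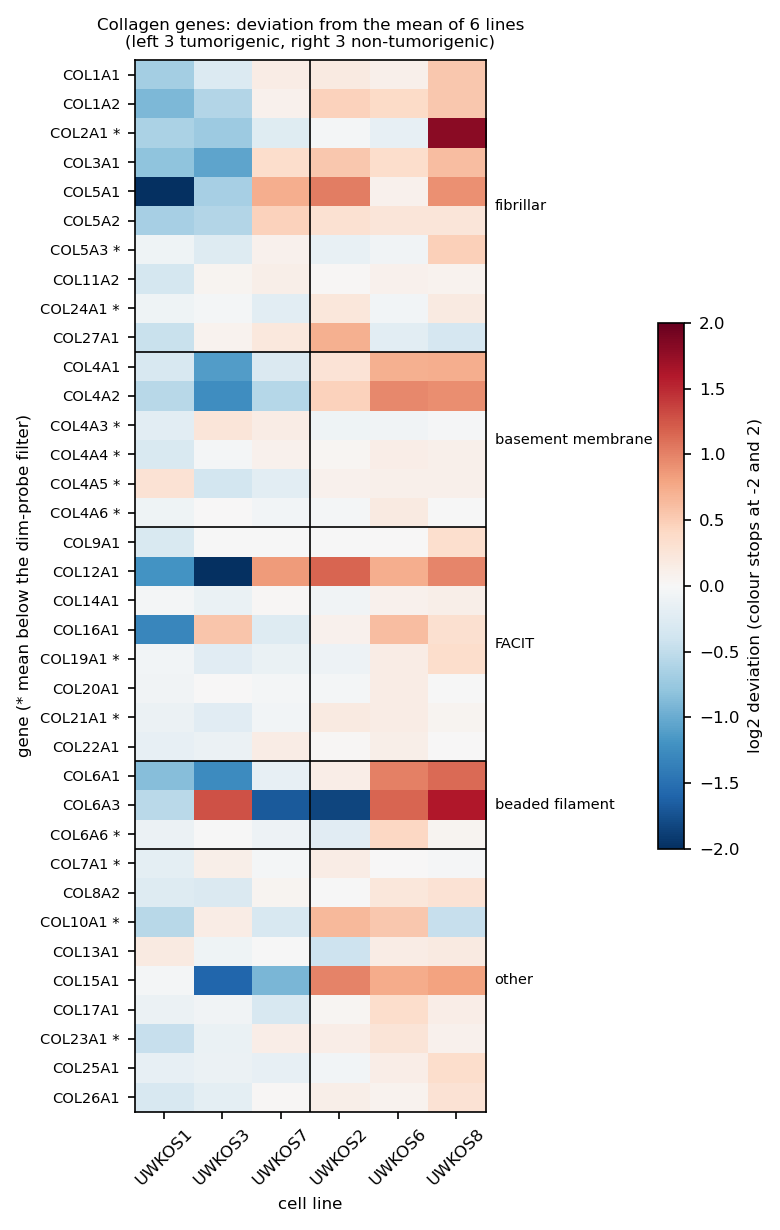
Deviation of each line from a gene's own mean over the 6 lines (colour, log2, blue lower, red higher) for the 36 collagen genes (rows, by class) in the 6 lines (columns, left 3 tumorigenic). UWKOS1 and UWKOS3 are blue over most fibrillar genes, where their class medians are -0.65 and -0.43, and UWKOS7 is not, at 0.13.

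Different probe sets of a fibrillar gene did not give 1 answer. The groups of COL1A2 were apart on each of its 4 probe sets, with differences from -1.67 to -0.79, and it passed on 1 (limma adjusted p = 0.0282). COL3A1 was lower on all 5, by 1.01 to 1.98, and passed on 1 (limma adjusted p = 0.0456). UWKOS7 lay below all non-tumorigenic lines on the passing probe set of COL3A1, at 8.04 against 8.58 to 9.09, but not on the brightest. COL1A1 differed by -0.55 on its brightest probe set and by -1.24 and -1.26 on the others, none of which passed. Over all classes 9 of 50 tested collagen probe sets fell and 0 rose, where 4.74% of all tested probe sets fell and 7.28% rose; probe sets of 1 gene are not independent.

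**Figure D4:**
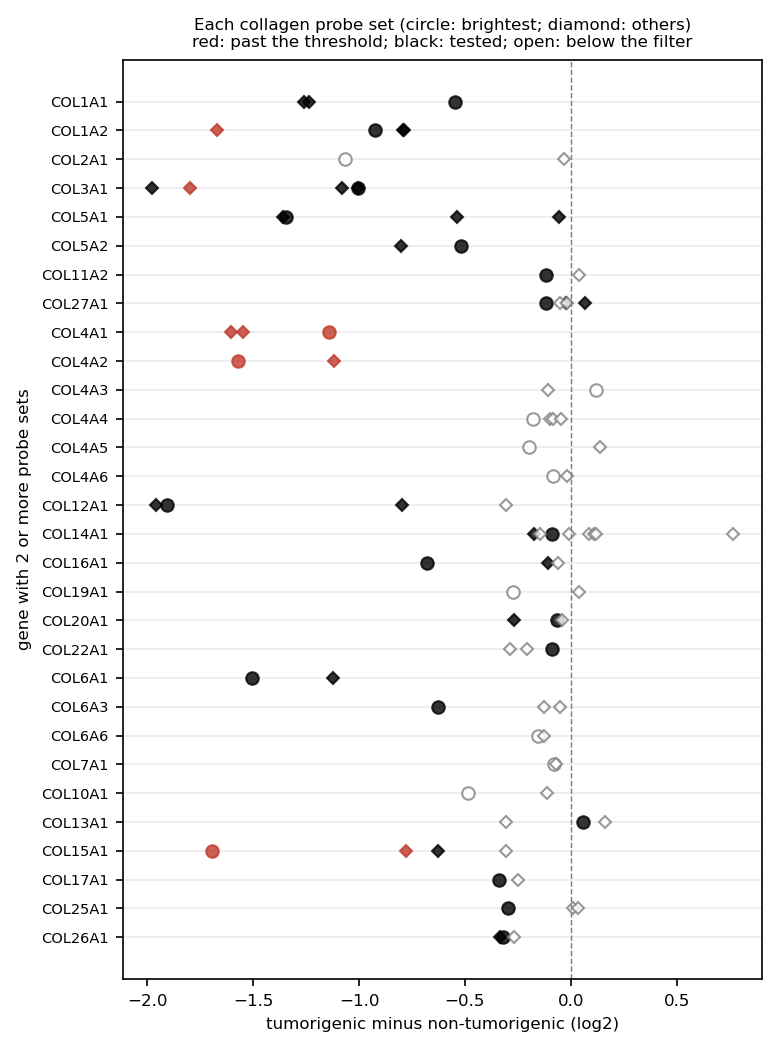
Difference of every probe set (x axis, tumorigenic minus non-tumorigenic, log2) for the collagen genes with at least 2 (y axis); circles mark the brightest probe set and diamonds the others, red those past the threshold, open symbols those under the filter. All probe sets of COL4A1 and COL4A2 are red, while COL1A2 and COL3A1 each have 1 red symbol among the others.

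Of the other fibrillar genes, 1 varied without order by group and the rest were near or under the filter in most lines. COL27A1, a minor fibrillar chain of cartilage, measured 6.93, 7.44 and 7.59 in the tumorigenic lines and 8.10, 7.17 and 7.04 in the others, with no order by group. COL11A2 and COL5A3, minor chains of cartilage and connective tissue fibres, and COL24A1 lay between 4.93 and 6.61 in all lines. COL2A1, the main collagen of cartilage, was highest in 1 line: it measured 4.64, 4.55 and 5.03 in UWKOS1, UWKOS3 and UWKOS7, 5.23 in UWKOS2, 5.12 in UWKOS6 and 7.08 in UWKOS8. The groups did not overlap, by 0.08, but the difference did not pass without the filter (limma adjusted p = 0.303). Its second probe set stayed between 3.37 and 3.57, and UWKOS8 did not stand out on it.

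Of 6 chondrocyte markers, only ACAN and COMP were highest in UWKOS8, and both were picked after their values were seen. ACAN, the large cartilage proteoglycan aggrecan, measured 9.56 in UWKOS8 and at most 5.99 in any other line. COMP, a thrombospondin that binds collagen fibrils, measured 14.64 in UWKOS8, 13.71 in UWKOS6, 8.08 in UWKOS2 and at most 6.75 in the tumorigenic lines. The remaining markers of that list did not follow. SOX9, the transcription factor of cartilage cells, was lowest in UWKOS8, at 5.41 against 5.54 to 6.27 in the other lines. CNMD and MATN3 had lower values in UWKOS8 than in UWKOS1 and UWKOS7 respectively, and HAPLN1 was 12.56 in UWKOS8 and 12.68 in UWKOS1. COL10A1, the collagen of hypertrophic cartilage, measured 3.98 in UWKOS8 and 3.89, 4.58, 4.11, 5.09 and 4.97 in UWKOS1, UWKOS3, UWKOS7, UWKOS2 and UWKOS6, under the filter throughout.

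Of the beaded filament chains, COL6A1 and COL6A3 went separate ways, although their products assemble into the same type VI microfibril. COL6A1 measured 9.18 in UWKOS1, 8.78 in UWKOS3 and 9.87 in UWKOS7, and 10.16, 11.03 and 11.16 in UWKOS2, UWKOS6 and UWKOS8. The groups did not overlap, and the difference of -1.51 with an SE of 0.38 lay just outside the threshold (limma adjusted p = 0.0503). Quantile normalization or centring on the 75th percentile brought COL6A1 just inside it (limma adjusted p = 0.0481 and 0.0484). On its second probe set the groups were also apart, with a difference of -1.13 (limma adjusted p = 0.0676).

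COL6A3 varied by 3.43 over the lines, with no order by group. It was 8.06 in the tumorigenic UWKOS3 and 7.95 and 8.37 in the non-tumorigenic UWKOS6 and UWKOS8, but 6.24 and 5.10 in UWKOS1 and UWKOS7 and 4.95 in UWKOS2. Each group held both high and low lines, so the difference of -0.63 had a 95% interval from -3.25 to 1.99. On its other 2 probe sets UWKOS3, UWKOS6 and UWKOS8 were again the 3 highest lines, at 6.25 to 6.32 on one and 6.45 to 6.67 on the other. UWKOS1, UWKOS7 and UWKOS2 reached at most 5.90 and 5.48 there. COL6A6 lay between 3.62 and 4.25.

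**Figure D5:**
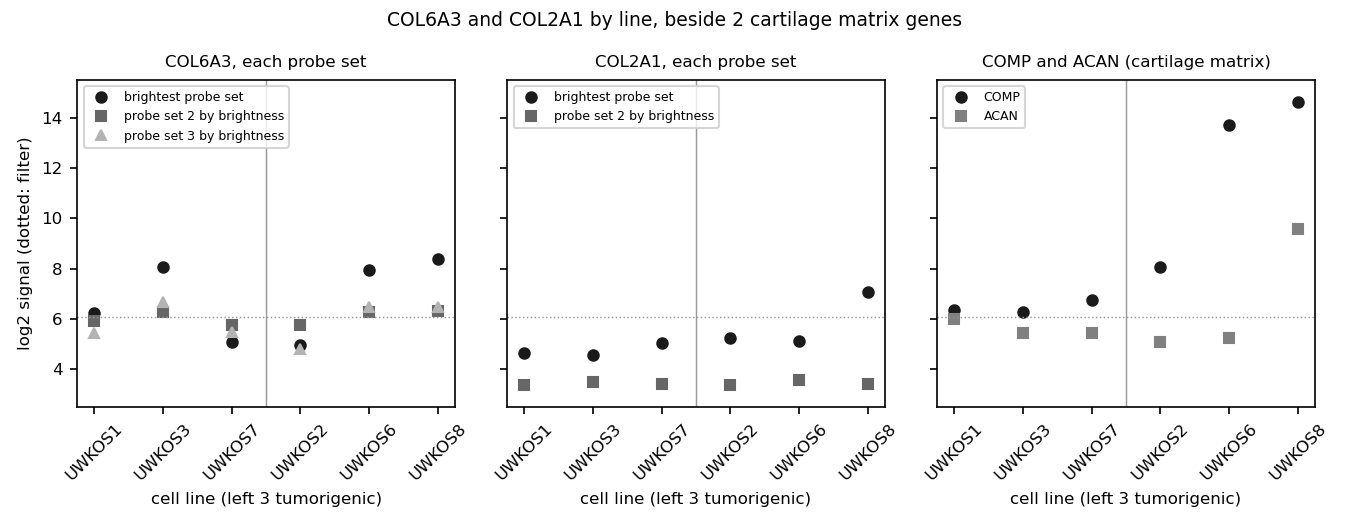
Log2 signal (y axis, dotted line at the filter of 6.07) by line (x axis, left 3 tumorigenic) for each probe set of COL6A3 and COL2A1 and for COMP and ACAN. The brightest probe set of COL6A3 is near 8 in UWKOS3, UWKOS6 and UWKOS8 only, and the brightest of COL2A1 stands out in UWKOS8, where COMP and ACAN are also highest. The other chondrocyte markers, not shown, were not highest in UWKOS8.

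FACIT collagens had the gene with the largest mean difference of the 36, COL12A1, which binds to type I fibres in tendon and bone. It measured 10.04 in UWKOS1 and 8.72 in UWKOS3 but 12.07 in UWKOS7, beside 12.40, 11.95 and 12.21 in UWKOS2, UWKOS6 and UWKOS8. UWKOS7 lay inside the range of the non-tumorigenic lines, and the difference of -1.91 with an SE of 0.78 did not pass (limma adjusted p = 0.152). On a second probe set UWKOS7 lay just below the others, at 9.78 against 9.88 to 10.62. The difference there was -1.96 (limma adjusted p = 0.101). On the remaining probe sets of COL12A1 UWKOS7 lay within the range of the non-tumorigenic lines. Those differed by -0.80 (limma adjusted p = 0.329) and, under the filter, by -0.30. COL16A1, another fibril-associated chain, measured 7.64 in UWKOS1, 9.51 in UWKOS3 and 8.69 in UWKOS7, beside 9.03, 9.57 and 9.27. There UWKOS1 was the low line and UWKOS3 lay within the range of the non-tumorigenic lines.

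On their brightest probe sets the other 6 FACIT genes were nearly flat. COL9A1, a cartilage chain, measured 7.21, 7.51 and 7.51 in the tumorigenic lines and 7.51, 7.52 and 7.85 in the others; the groups were apart by only 0.0079. COL21A1 measured 4.86, 4.76 and 4.93 against 5.17, 5.14 and 5.04, without overlap but under the filter. COL14A1, COL19A1, COL20A1 and COL22A1 varied by at most 0.58 over the 6 lines on those probe sets. Another tested probe set of COL20A1 was lower without overlap by a small amount, -0.27 (limma adjusted p = 0.291). So were the other probe sets of COL22A1, under the filter, at -0.21 and -0.29. The 8 probe sets of COL14A1 were split, 4 lower and 4 higher on average. The largest of these differences, 0.77, belonged to one under the filter that varied by 2.23 over the lines.

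Of the remaining chains beside COL15A1, 3 were lower without overlap by small amounts and did not pass. COL17A1, a transmembrane collagen of epithelial attachment, measured 5.98, 6.02 and 5.79 in UWKOS1, UWKOS3 and UWKOS7 and 6.14, 6.44 and 6.22 in UWKOS2, UWKOS6 and UWKOS8. COL25A1, a transmembrane chain known from neurons, measured 6.53, 6.58 and 6.54 against 6.65, 6.83 and 7.06. COL26A1 measured 6.86, 6.98 and 7.20 against 7.30, 7.24 and 7.47. These differences, -0.34, -0.30 and -0.32, were small beside those of COL4A1 or COL15A1. For each of the 3 genes only the brightest probe set separated the groups. The other probe sets of COL25A1, under the filter, differed by 0.0105 and 0.0345. COL8A2, COL13A1, COL23A1 and COL7A1, a network chain, 2 transmembrane chains and the chain of anchoring fibrils, varied by at most 0.72 over the 6 lines.

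Taking all classes, 15 of the 36 collagen genes varied by more than 1 over the 6 lines, or 41.7%, where 36.9% of all genes did. They were 7 fibrillar genes and 2 in each other class. On the brightest probe set of each, the other 21 varied by at most 0.72.

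Genes that mature or bind collagen were examined next. Of 28 measured genes of maturation, which hydroxylate, fold, cleave or cross-link the chains, 24 were tested, 1 fell and 1 rose, where 4.52% of all tested genes fell and 7.30% rose. P4HA3, a catalytic subunit of prolyl 4-hydroxylase, measured 7.98, 7.36 and 7.84 in the tumorigenic lines and 8.68, 9.55 and 9.88 in UWKOS2, UWKOS6 and UWKOS8, a difference of -1.64 (limma adjusted p = 0.0348). P3H2, a prolyl 3-hydroxylase that acts on type IV collagen among others, went the opposite way, with 8.17, 9.19 and 8.02 in the tumorigenic lines and 6.35, 6.24 and 6.59 in the others. The rise of P3H2 was 2.07 (limma adjusted p = 0.0211). When 1 line at a time was left out, P4HA3 passed only without UWKOS2. Without the filter P3H2 passed and P4HA3 did not (limma adjusted p = 0.0305 and 0.0519). Of 8 measured receptors that bind collagen 7 were tested and 0 passed. Among them ITGA1 differed most, by -3.02, without overlap between the groups (limma adjusted p = 0.0683). The mean was lower in the tumorigenic lines for 6 of the 8, and higher for DDR1 and CD44. Medians of the differences were -0.30 for maturation and -0.32 for the receptors.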

How the data were processed

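Total RNA of 6 lines (10 µg, Trizol) was labelled with biotin and hybridised, 1 array per line, per the labels' protocols. The authors deposited log2 values for 43035 probe sets. The submitters' processing notes name MAS5 and no other software; since the 6 columns have nearly equal quantiles, the summary method is not settled here. Values were used as deposited, with no detection calls. Precision is limited by having 3 arrays a group.

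Of 42924 non-control probe sets, 29254 had 1 symbol in the platform annotation, 439 several and 13231 none; symbols were updated by gene identifier to RefSeq (UU_Cfam_GSD_1.0). The 21462 with a mean at or above the median, 6.07, were compared with limma 3.58.1 in R 4.3.3 (lmFit, eBayes, no covariate, Benjamini-Hochberg adjustment). Classes were described by counts and medians. In simulated data on 21462 probe sets, with 50 changes each of 1, 2, 4 and 6, limma recovered 22% of the changes of 1 and 70% of those of 2. It also called 9 unchanged probe sets. Far fewer probe sets were changed there than the 1563 that rose and 1017 that fell in the data, so the adjustment was stricter. These shares therefore do not give the power of the real comparison. The members, classes, lists and alternatives were chosen with earlier results of these data known. Values in all lines were given for collagen genes that passed, did not overlap between groups or had the 2 largest differences of their class. COL1A1, COL3A1, COL5A2 and COL27A1 were added after their values were seen, as were COMP, ACAN, SPP1 and OMD. Replicate numbers follow accession order and pair nothing. The alternatives are given at the end. Figures used matplotlib 3.10.9.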

Additional observations from a re-analysis of the deposited data

How the results depend on the processing

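The mean differences of COL4A1, COL4A2, COL15A1 and COL6A1 were below 0 under all 19 alternatives; COL4A2 passed in 14, COL15A1 in 10, COL4A1 in 9 and COL6A1 in 6. Where a call was lost the cause was not tested, beyond what is named here. The count of 3 collagen genes that fell changed along with the count over all probe sets, which was 1017 of 21462 in the main fit. It was 1 with no filter on dim probe sets, where 854 of 42924 probe sets fell. With array weights it was 5, where 1538 of 21462 fell. It was 0 with the GAPDH ratio as a covariate, where 18 fell. The mean of 4 transcript-end ratios as a covariate (an alternative chosen after seeing the data) also gave 0, where 16 fell. Calls without UWKOS6 and UWKOS8 are not counted here, because only UWKOS2 then remains in its group. Leaving out 1 line at a time gave 0 to 7, where 34 to 1230 of all 21462 probe sets fell. Of the maturation and receptor genes, the count that fell was 0 with no filter and 5 with array weights. It was 3 with an upper-quartile filter, where 763 of 10731 probe sets fell. Either covariate gave 0, and leaving out 1 line gave 0 to 5. The count that rose was 0 with the upper-quartile filter, where P3H2 is too dim to be tested. It was 2 with array weights, where 2357 of 21462 probe sets rose. Either covariate gave 0, where 9 rose. Leaving out 1 line gave 0 to 1, where 18 to 1939 rose.

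The median difference of the basement membrane class, -0.19, was -0.26 centred on the 75th percentile, -0.016 centred on the hybridization controls and -0.077 when a gene's probe sets were averaged. That of the FACIT class, -0.24, was -0.072 centred on the hybridization controls, -0.092 with the GAPDH covariate, -0.087 with the mean of 4 ratios and -0.088 without UWKOS6 and UWKOS8, and -0.27 to -0.14 leaving out 1 line. That of the beaded filament class, -0.63, was 0.12 with the mean of 4 ratios and 0.15 without UWKOS6 and UWKOS8, and -1.70 to -0.14 leaving out 1 line. That of the other chains, -0.32, was -0.40 and -0.15 with the same 2 centrings, -0.21 with each covariate, -0.21 without UWKOS6 and UWKOS8, and -0.41 to -0.27 leaving out 1 line.

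Signs turned only in genes with no call. Centred on the hybridization controls, COL11A2 was 0.056, COL27A1 0.054, COL14A1 0.084, COL20A1 0.11 and COL22A1 0.082; centred on the 75th percentile, COL13A1 was -0.021. With array weights COL27A1 was 0.034 and COL13A1 -0.046. COL6A3 was 0.33 with the GAPDH covariate. With the mean of 4 ratios COL6A3 was 0.98, COL14A1 0.026 and COL20A1 0.00057, and without UWKOS6 and UWKOS8 they were 1.52, 0.025 and 0.00053. Leaving out 1 line gave -0.20 to 0.029 for COL11A2, -0.31 to 0.21 for COL27A1, -1.70 to 0.057 for COL6A3 and -0.14 to 0.16 for COL13A1. No paired analysis was possible because replicate numbers were given in accession order. Signal over background limits the 13 collagen genes under the filter, most of whose values lay near or under 6.07; COL2A1 in UWKOS8, at 7.08, was the highest of them.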
